A study of Mus musculus with 5 samples.

Results

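The genes described here belong to sympathetic neurons and to the synthesis of catecholamines. They are Th, Ddc and Dbh, which encode enzymes, Prph, which encodes an intermediate filament, Hand1, Hand2 and Gata3, which encode transcription factors, and Ret, which encodes a receptor. All 8 had values in the deposited tables, which hold 4743 genes. They were chosen by name, with the difference between the genotypes in these same samples already known. Their levels and differences are therefore given as a description, and no test is used to support them.

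RNA was sequenced from E15.5 forelimb muscle of C57BL/6 mice, as 3 Noggin-deficient and 2 wild type control samples. Noggin is an extracellular antagonist: it captures bone morphogenetic proteins (BMPs) before they can reach a receptor. Neither the Noggin allele, nor the sex, litter or pooling of embryos, is given in the sources used here, so the spread between samples may be technical. Nog, which encodes Noggin itself, stood at 0.49, 0.42 and 0.42 in Noggin-deficient muscle, against 2 and 1.99 in wild type muscle. Which part of Nog the allele alters is unknown here. The values are an expression signal in a unit that is not named, and levels of different genes are therefore not ranked against each other.

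Sympathetic neurons and adrenal chromaffin cells arise from trunk neural crest cells. BMPs made by the dorsal aorta induce in these cells a set of transcription factors, among them Phox2a, Hand2 and Gata3, which maintain the genes of noradrenaline synthesis. Tyrosine hydroxylase (Th) makes DOPA from tyrosine, DOPA decarboxylase (Ddc) makes dopamine from DOPA, and dopamine beta-hydroxylase (Dbh) makes noradrenaline from dopamine. In the limb, sympathetic axons run with nerves and blood vessels, while the cell bodies lie in ganglia beside the spine. Several of these genes also act elsewhere: Ddc is expressed in kidney and liver, Gata3 in T cells, epidermis and hair follicles, Hand2 in limb bud mesenchyme and heart, and Prph and Ret also in sensory and motor neurons.

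The promoters of the 3 enzyme genes are shown because the enzymes of this chain differed in direction. Each run is the 250 bases before a transcription start, from RefSeq on GRCm38.p6, which is not the mm9 build that the submitters' notes name, and each is written 5′ to 3′ on the strand of the gene. Capitals mark the letters of an E-box (CANNTG), the kind of site that Hand factors bind, of a cAMP response element (TGACGTCA), or of a TATA box (TATAAA), on either strand. The windows lie at chr7:142899996-142900245 for Th, chr2:27165257-27165506 for Dbh, and chr11:11890409-11890658 and chr11:11898145-11898394 for the 2 starts of Ddc in the table. Th and Ddc lie on the minus strand and Dbh on the plus strand.
Th: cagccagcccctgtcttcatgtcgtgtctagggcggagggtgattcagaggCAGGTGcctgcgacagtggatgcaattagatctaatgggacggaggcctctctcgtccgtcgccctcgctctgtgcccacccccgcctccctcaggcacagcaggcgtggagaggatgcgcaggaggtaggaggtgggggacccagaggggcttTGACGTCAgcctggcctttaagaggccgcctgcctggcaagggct
Dbh: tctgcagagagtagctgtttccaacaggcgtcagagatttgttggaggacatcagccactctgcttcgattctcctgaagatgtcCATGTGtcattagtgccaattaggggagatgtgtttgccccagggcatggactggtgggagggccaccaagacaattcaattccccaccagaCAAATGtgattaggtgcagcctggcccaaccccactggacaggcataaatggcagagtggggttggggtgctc
Ddc, first window: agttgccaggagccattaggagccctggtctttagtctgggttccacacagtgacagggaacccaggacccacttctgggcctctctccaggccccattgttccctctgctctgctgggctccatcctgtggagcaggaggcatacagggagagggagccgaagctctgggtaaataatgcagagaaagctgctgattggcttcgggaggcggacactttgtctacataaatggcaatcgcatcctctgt
Ddc, second window: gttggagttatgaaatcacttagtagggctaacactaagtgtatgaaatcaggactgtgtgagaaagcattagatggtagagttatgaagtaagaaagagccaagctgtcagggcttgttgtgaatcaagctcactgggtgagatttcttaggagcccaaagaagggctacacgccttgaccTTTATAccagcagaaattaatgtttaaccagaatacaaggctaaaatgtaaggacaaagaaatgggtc

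The Th window held 1 E-box and 1 cAMP response element, which begins at position -45 from the start, and the Dbh window held 2 E-boxes. Neither Ddc window held either of these, and the second held a TATA box at position -68. Among 32536 distinct windows of the same length, 66.2% held an E-box, 1.56% a cAMP response element and 12.3% a TATA box. Windows were also found for Hand2, Gata3 and Prph, so that 6 of the 8 genes matched. The Hand2 window held 2 E-boxes and the letters TAATTA, a homeodomain motif found in 4.84% of windows, overlapping a GATA motif (AGATAA on either strand), found in 9.97%. The Prph window held a TATA box at position -31, and the Gata3 window held none of the 5 motifs. A match describes the letters of a window and is not evidence of binding.

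The enzymes of the chain did not move together. The value of Th was 1.62, 1.6 and 1.31 in Noggin-deficient muscle, against 0.03 and 0.01 in wild type muscle. The gene was thus close to the last decimal of the tables in wild type and far above it in all 3 Noggin-deficient samples. Mean values were 1.51 ± 0.173 (SD, n = 3) in Noggin-deficient and 0.02 ± 0.0141 (SD, n = 2) in wild type muscle, a ratio of 75.5. Rounding to 2 decimals alone lets that ratio lie anywhere from 60.2 to 101.0. In bulk tissue, a change in the number of cells of a type and a change in RNA per cell cannot be told apart.

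Dbh had values of 3.22, 3.55 and 3.57 in Noggin-deficient muscle, against 0.59 and 0.53 in wild type muscle. The groups lay far apart, with means of 3.45 ± 0.197 (SD, n = 3) in Noggin-deficient and 0.56 ± 0.0424 (SD, n = 2) in wild type muscle, a ratio of 6.16. On the log2(value + 0.25) scale, on which all differences below are given as Noggin-deficient minus wild type, Th differed by 2.70 and Dbh by 2.19. This scale understates the change of genes with low values. The difference of Th was 3.75 with a pseudocount of 0.1 and 1.30 with a pseudocount of 1.

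Ddc, the enzyme between them in the chain, went the other way. Its values were 10.98, 10.26 and 11.54 in Noggin-deficient muscle, against 15.72 and 15.81 in wild type muscle. Every Noggin-deficient sample was below both wild type samples, with means of 10.9 ± 0.642 (SD, n = 3) in Noggin-deficient and 15.8 ± 0.0636 (SD, n = 2) in wild type muscle. The ratio of the means was 0.693 and the log2 difference -0.52. Ddc was thus listed well above 0 in wild type muscle, where Th was close to 0.

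**Figure D1:**
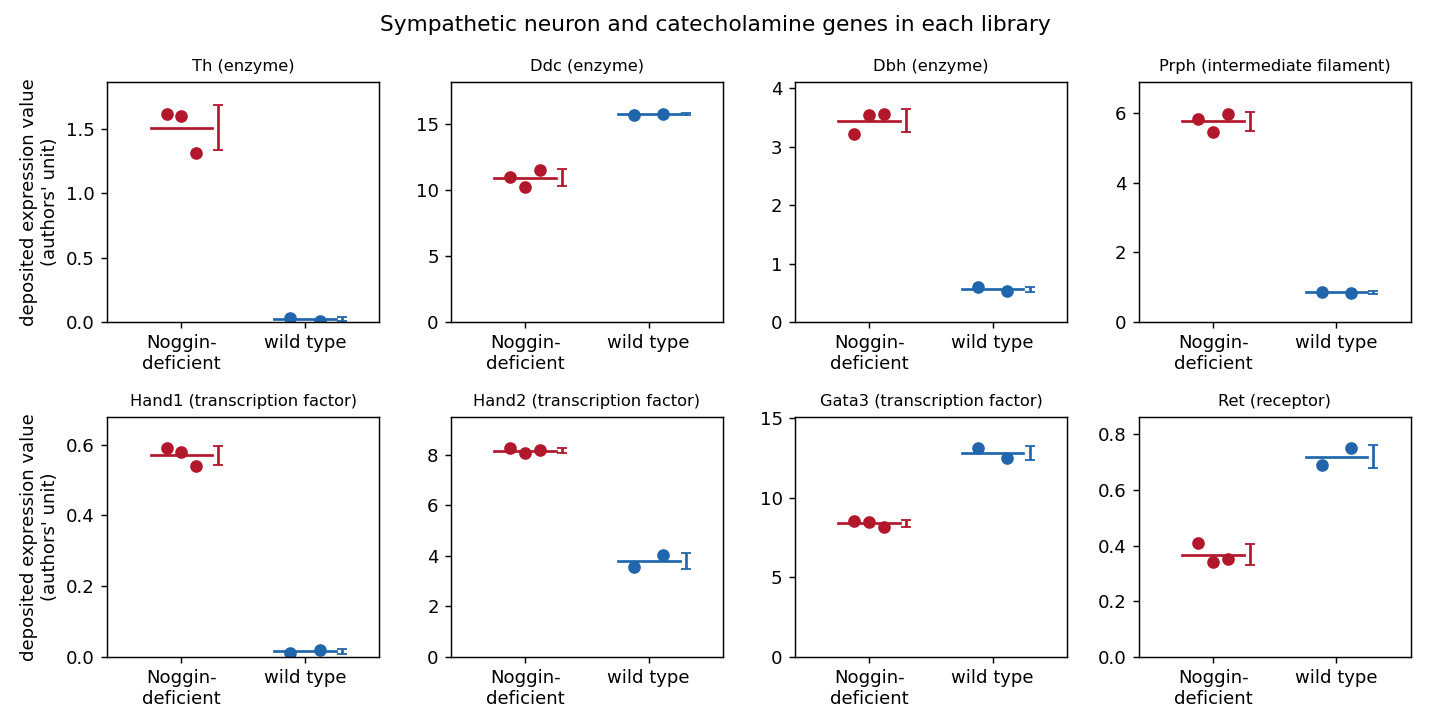
Deposited expression value of each gene (vertical axis, the authors' unit, a separate linear scale from 0 in each panel) in the 3 Noggin-deficient and the 2 wild type libraries. Points are libraries, horizontal lines are means and bars are 1 SD; Th, Dbh, Prph, Hand1 and Hand2 were higher and Ddc, Gata3 and Ret lower in all Noggin-deficient libraries.

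Prph encodes peripherin, an intermediate filament of neurons with axons outside the central nervous system. Its values of 5.84, 5.46 and 5.99 in Noggin-deficient muscle stood well above the 0.87 and 0.82 of the wild type samples. The means were 5.76 ± 0.273 (SD, n = 3) in Noggin-deficient and 0.845 ± 0.0354 (SD, n = 2) in wild type muscle, a ratio of 6.82 and a log2 difference of 2.46.

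The transcription factors parted as the enzymes did. Hand1 and Hand2 are basic helix-loop-helix factors, and Hand2 is needed in mice for sympathetic neurons to take on and keep their noradrenergic character. Hand2 had values of 8.26, 8.08 and 8.18 in Noggin-deficient muscle, against 3.56 and 4.03 in wild type muscle. The Noggin-deficient values were close to each other and all above those of wild type, with means of 8.17 ± 0.0902 (SD, n = 3) in Noggin-deficient and 3.80 ± 0.332 (SD, n = 2) in wild type muscle, a ratio of 2.15 and a log2 difference of 1.06.

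Hand1 was low in both groups. Its values were 0.59, 0.58 and 0.54 in Noggin-deficient muscle, against 0.01 and 0.02 in wild type muscle, where it lay at the last decimal of the tables. The ratio of the means was 38.0, with 28.2 to 57.5 allowed by rounding alone, and the log2 difference of 1.63 was 2.54 with a pseudocount of 0.1 and 0.63 with a pseudocount of 1.

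Gata3 encodes a zinc finger factor that mouse sympathetic neurons need for survival and for Th expression. Its values were 8.56, 8.44 and 8.14 in Noggin-deficient muscle, against 13.10 and 12.48 in wild type muscle. All Noggin-deficient samples were below both wild type samples, with means of 8.38 ± 0.216 (SD, n = 3) in Noggin-deficient and 12.8 ± 0.438 (SD, n = 2) in wild type muscle, a ratio of 0.655 and a log2 difference of -0.60.

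Ret, the signalling receptor for ligands of the GDNF family, was also lower. Its values were 0.41, 0.34 and 0.35 in Noggin-deficient muscle, against 0.69 and 0.75 in wild type muscle, so that the groups did not overlap. The means were 0.367 ± 0.0379 (SD, n = 3) in Noggin-deficient and 0.72 ± 0.0424 (SD, n = 2) in wild type muscle, a ratio of 0.509 and a log2 difference of -0.65. Ret has the longest annotated transcript of the 8 genes, 5456 bases, and its difference was -0.35 once a trend of the differences on transcript length was removed.

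By role, the 3 enzymes spanned log2 differences from -0.52 to 2.70 with a median of 2.19, and the 3 transcription factors spanned -0.60 to 1.63 with a median of 1.06. The median of the enzymes was thus 1.13 above that of the factors, but each median is the value of a single gene, and each class held 2 genes that were higher and 1 that was lower in Noggin-deficient muscle. The spread within the enzymes, 3.22, was larger than the distance between the classes. The 8 genes together had a median of 1.34, beside -0.28 for the 3913 genes tested, those that reached 0.5 in 2 or more libraries.

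All 8 genes passed that filter, Th and Hand1 only through the Noggin-deficient samples and Ret only through the wild type samples, so these 3 had to differ. In a fit with limma over the tested genes at a Benjamini-Hochberg adjusted p under 0.05, 8 of 8 were called, 5 higher and 3 lower, where 98.0% of all tested genes were called, 37.9% higher and 60.1% lower. The groups overlapped for none of the 8 genes, and 98.2% of the 4743 genes also did not overlap, 41.2% being higher and 57.1% lower. Nearly every gene in the tables thus differs between the genotypes, and these counts say nothing particular about the 8 genes.

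**Figure D2:**
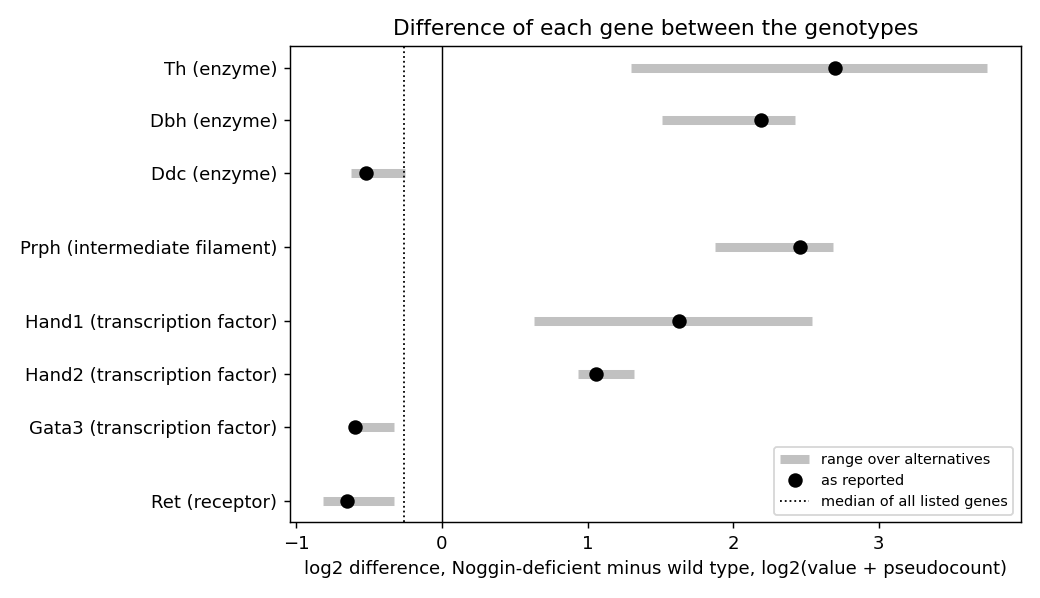
Log2 difference of each gene, Noggin-deficient minus wild type (horizontal axis). Black points are the values given in the text and grey bars span all alternatives that gave a value. The dotted line is the median of all listed genes, -0.26. No bar crosses 0, and only the scalings and the removal of the length trend could have made one cross.

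Dividing the values of a pair of genes within a library removes any scaling of that library, but not a trend of the differences on transcript length, which bears most on the ratio with Ret. The ratio of Ddc to Dbh was 3.41, 2.89 and 3.23 in Noggin-deficient muscle, against 26.6 and 29.8 in wild type muscle. The ratio of Hand2 to Gata3 was 0.965, 0.957 and 1.005 in Noggin-deficient muscle, against 0.272 and 0.323 in wild type muscle. Both ratios had to set the groups apart, because in each pair 1 gene was higher and the other lower in every Noggin-deficient library. Their separation is therefore no further result.

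The ratio of Ret to Dbh was 0.127, 0.0958 and 0.0980 in Noggin-deficient muscle, against 1.17 and 1.42 in wild type muscle. It too had to separate the groups, since Ret was lower and Dbh higher in every Noggin-deficient library. The ratio of Prph to Dbh differed far less, with 1.81, 1.54 and 1.68 in Noggin-deficient muscle, against 1.48 and 1.55 in wild type muscle, where the groups overlapped. The filament gene and Dbh therefore differed between the genotypes by about the same factor, although both differed several-fold.

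**Figure D3:**
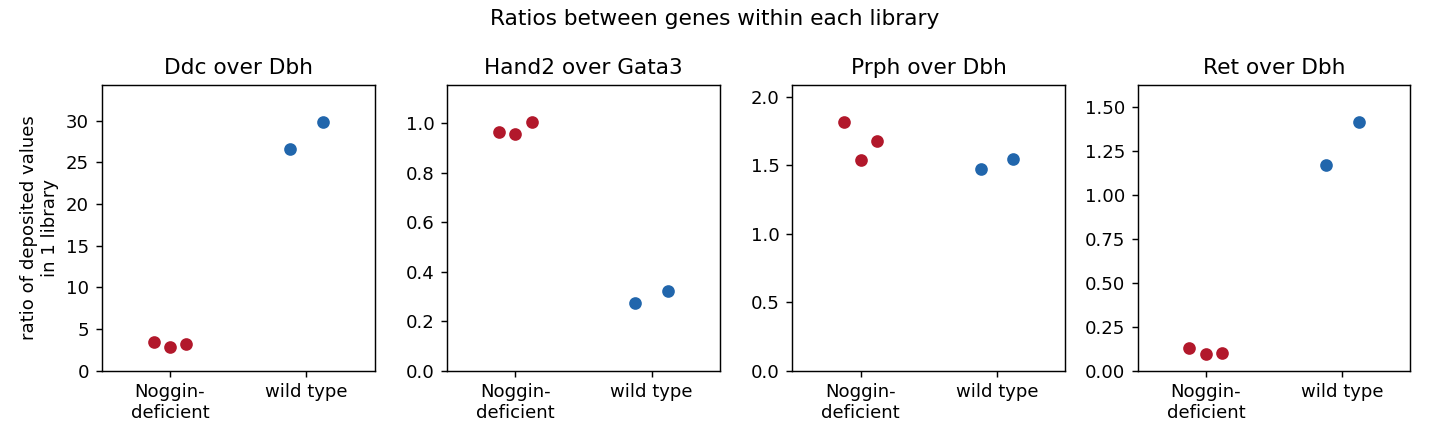
Ratio of the deposited values of a pair of genes within each library (vertical axis, no unit, linear from 0) for the 3 Noggin-deficient and the 2 wild type libraries. Each point is a library. The groups lie apart for Ddc over Dbh, Hand2 over Gata3 and Ret over Dbh, as the opposite directions of the paired genes require. They overlap for Prph over Dbh.

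Within a group the 8 genes varied little beside the differences between the groups. Among the Noggin-deficient samples the coefficient of variation ran from 1.10% for Hand2 to 11.5% for Th, and in wild type from 0.404% for Ddc to 70.7% for Th, the last for a pair of values at the limit of the decimals. For genes with a mean from 1 to 5, the median coefficient of variation was 6.03% in Noggin-deficient and 4.55% in wild type muscle. It was 13.6% and 10.9% for means from 0.2 to 1, and 3.23% and 2.52% for means from 5 to 20. Of the genes in this last range, Ddc had 5.87%, Gata3 2.58% and Hand2 1.10% in Noggin-deficient muscle. The Noggin-deficient sample with the lowest Th, replicate 3, was also the lowest of its group for Pnmt (1.03), Chga (1.95) and Chgb (1.89), and the highest for Slc6a2 (1.17), Scg2 (1.40) and Phox2a (2.10). These genes were picked after their values were seen.

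The other genes of the pathway were read from 4 lists, of 68 genes in all, that do not contain the 8 genes. Of these 68, 35 had values and 28 passed the filter. All 28 were called, 26 higher and 2 lower, where 98.0% of all tested genes were called and 37.9% were called higher. The median log2 difference was 1.19 over the 28, beside -0.28 over all genes tested. Over all 35 with values the median was 1.02, beside -0.26 over all 4743 listed genes. The groups did not overlap for any of the 35, 33 being higher and 2 lower. Of the 4743 genes 98.2% also did not overlap, 41.2% being higher and 57.1% lower. The tables look preselected for a difference between the groups, so list genes without values may be those that did not differ. List genes named beyond the largest 3 differences of each list were chosen after their values were seen.

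Of 21 genes for further steps of synthesis, storage, transport and breakdown of catecholamines, 9 had values, and 7 of the 8 tested were called higher. Chga and Chgb encode chromogranins of the dense-core vesicles that store catecholamines. Chga had values of 2.11, 2.63 and 1.95 in Noggin-deficient muscle, against 0.11 and 0.12 in wild type muscle, a log2 difference of 2.75. Chgb had values of 2.32, 2.29 and 1.89 in Noggin-deficient muscle, against 0.04 and 0.07 in wild type muscle, a log2 difference of 2.98. For both, all wild type values were a small fraction of any Noggin-deficient value.

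Npy, a peptide co-released with noradrenaline, had values of 1.71, 1.48 and 1.49 in Noggin-deficient muscle, against 0.35 and 0.18 in wild type muscle. Slc6a2, the transporter that takes noradrenaline back into the axon, had values of 0.91, 0.85 and 1.17 in Noggin-deficient muscle, against 0.12 and 0.10 in wild type muscle. Pnmt, which makes adrenaline from noradrenaline, had values of 1.44, 1.53 and 1.03 in Noggin-deficient muscle, against 0.41 and 0.39 in wild type muscle. All 3 were called higher, as were the secretogranin genes Scg2 and Scg3 with log2 differences of 1.13 and 1.02.

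Vgf, a neuropeptide precursor gene, was too low to be tested. Maob, a monoamine oxidase that breaks down amines in many tissues, was the gene of this list that was called lower, at -0.25, and its difference was 0.01 under median-of-ratios scaling, which divides each library by its median ratio to the others. That scaling raised the median difference of all tested genes by 0.26, and under it the differences of Ddc, Gata3 and Ret were -0.25, -0.33 and -0.47.

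Of 12 sympathoadrenal transcription factors 4 had values. Phox2a, a homeodomain factor of noradrenergic cells that activates the Dbh promoter, had values of 1.99, 1.72 and 2.10 in Noggin-deficient muscle, against 0.19 and 0.33 in wild type muscle, and was called higher with a log2 difference of 2.11. Isl1, a LIM homeodomain factor of sympathetic, sensory and motor neurons, was called higher at 0.41.

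Of 16 genes for neurotrophic receptors and ligands 6 had values, and 4 of the 5 tested were called higher. Ntrk2 and Ntrk3, receptors for neurotrophins, were called higher with differences of 0.42 and 0.40.

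Genes of the Ret system had no common direction. Gfra4, a co-receptor of Ret, was called higher at 0.47, and Nrtn, the ligand neurturin, was called lower at -0.49, with values of 3.72, 4.28 and 3.87 in Noggin-deficient muscle, against 6.12 and 5.19 in wild type muscle. Ret itself was lower, as given above.

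Of 19 genes for the cytoskeleton and synapses of neurons, 16 had values and all 13 tested were called higher. Stmn3, a microtubule regulator, had values of 2.09, 2.49 and 2.68 in Noggin-deficient muscle, against 0.04 and 0.12 in wild type muscle, a log2 difference of 3.02. Tubb3, the neuronal beta-tubulin, had values of 7.66, 7.62 and 8.29 in Noggin-deficient muscle, against 1.10 and 1.24 in wild type muscle, a log2 difference of 2.51. Ina, the filament protein alpha-internexin, differed by 2.10.

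The neurofilament genes of larger axons differed less. Nefl had values of 4.11, 3.92 and 4.45 in Noggin-deficient muscle, against 2.37 and 2.4 in wild type muscle, a log2 difference of 0.74, and Nefm differed by 1.25. Chrna3, a nicotinic receptor subunit of autonomic ganglia, had 0.20, 0.24 and 0.19 in Noggin-deficient muscle, against 0.01 in both wild type samples, and was too low to be tested.

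**Figure D4:**
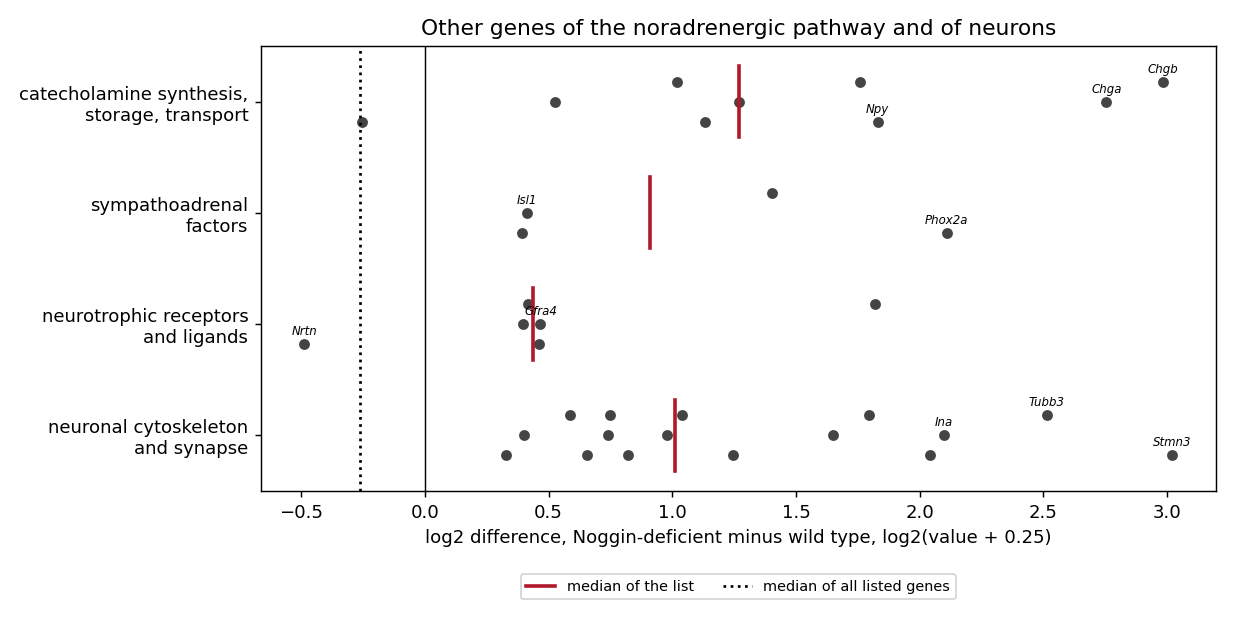
Log2 difference, Noggin-deficient minus wild type, of the 35 other pathway and neuronal genes with values (horizontal axis), by list. Each point is a gene and red bars are list medians (1.27 for the catecholamine list and 1.01 for the cytoskeleton list). The dotted line is the median of all listed genes. Of the 35 points 33 lie above 0, beside 1976 of all 4743 listed genes.

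The genes nearest in profile to Th and to Hand2 were found by the root mean square difference of log2 values, centred on the wild type mean, over the 5 samples, over genes whose mean reached 1. With 2 groups this measure is set mainly by the difference between the genotypes. The 5 nearest to Th were Chga (distance 0.114), Gpd1 (0.121), Krt35 (0.140), Tubb3 (0.213) and Irs4 (0.213). Those nearest to Hand2 were Apod (0.0325), Car3 (0.0565), Kel (0.0700), Fabp4 (0.0763) and Mapt (0.0814).

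Markers of other cell types moved with the genotype as well, and their part in the differences above was not tested. Of 10 liver genes all 10 had values, all were higher, and their summed value was 94.7 to 96.1 in Noggin-deficient muscle, against 1.43 to 1.70 in wild type muscle. Of 12 genes of distal and posterior limb mesenchyme, where Hand2 is also expressed, 10 had values and were higher, with sums of 31.8 to 32.8 in the Noggin-deficient libraries and 17.02 to 18.3 in wild type muscle.

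Genes of the epidermis, where Gata3 is also expressed, were lower. Of 9 on the list 8 had values and all 8 were lower, with sums of 906 to 936 in the Noggin-deficient libraries and 2314 to 2350 in wild type muscle. Of 7 T cell genes 2 had values, Cd3g and Lck, both higher, with sums of 1.91 to 2.20 in the Noggin-deficient libraries and 1.18 to 1.23 in wild type muscle. Gata3, the epidermal genes and these T cell genes were compared over the same 2 groups, and any link between them was not tested.

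Markers of other parts of the nervous system differed in direction. Of 10 Schwann cell genes 7 had values, 2 higher and 5 lower, among them Erbb3 at -0.54 and Sox10 at -0.25, the last turning to 0.01 under median-of-ratios scaling, with sums of 37.6 to 40.4 in the Noggin-deficient libraries and 48.2 to 48.4 in wild type muscle. Of 9 sensory neuron genes 5 had values and 1 passed the filter, called higher. Pou4f1, a defining sensory factor, did not pass and had 0.18, 0.23 and 0.19 in Noggin-deficient muscle, against 0.32 and 0.27 in wild type muscle. None of the 4 motor neuron genes had values and they were not analysed here.

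The adrenal cortex surrounds the chromaffin cells, and 3 of its 9 genes had values. Cyp17a1, an enzyme of steroid synthesis, had 0.34, 0.22 and 0.20 in Noggin-deficient muscle, against 1.12 and 1.02 in wild type muscle, and Cyp11a1 differed by -0.27, or by 0.00 under median-of-ratios scaling. Hsd3b1 was at most 0.17 in any sample and listed at 0 in wild type replicate 2. Of the 9 kidney genes Cubn had values, from 0.17 to 0.19 in the Noggin-deficient libraries and from 0.26 to 0.30 in wild type muscle, and of the 7 cardiac genes Myh6 did, with a difference of -0.34.

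**Figure D5:**
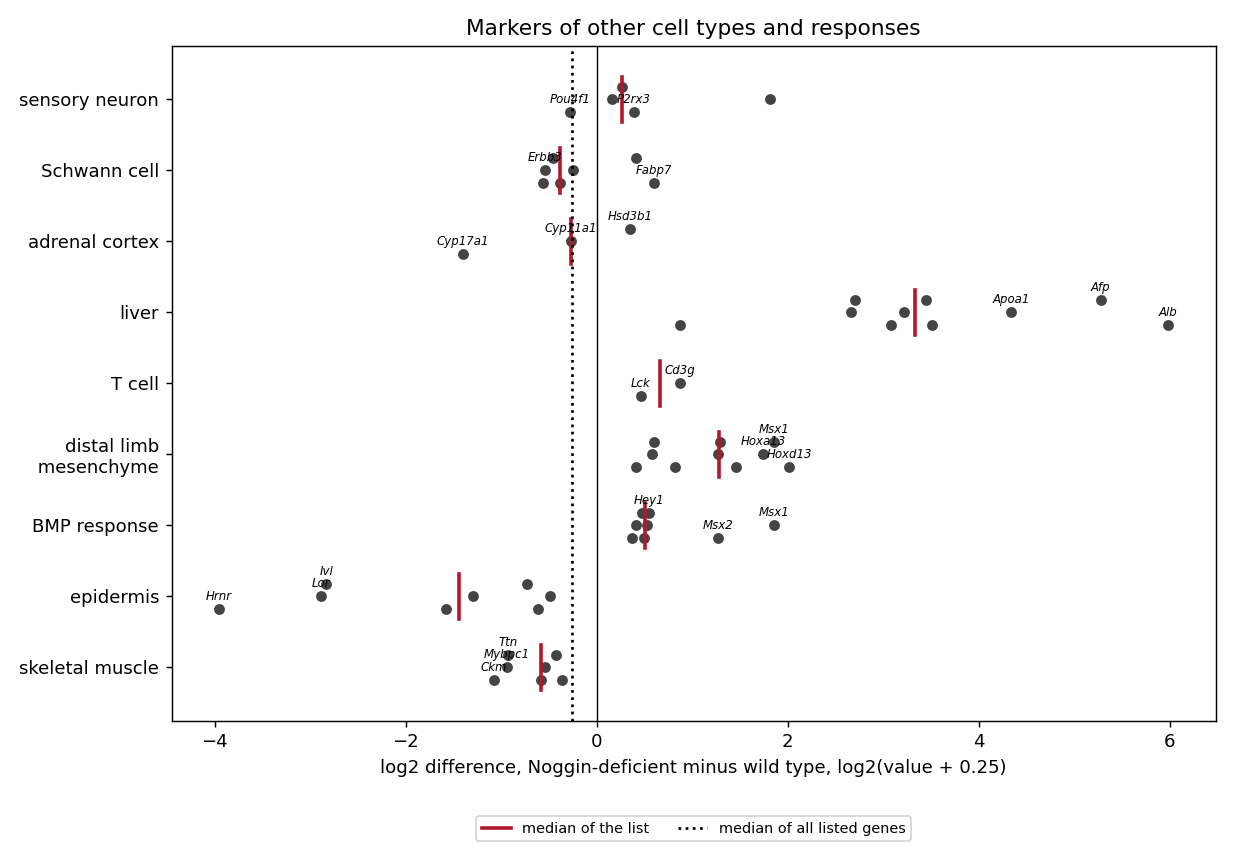
Log2 difference, Noggin-deficient minus wild type, of marker genes with values (horizontal axis), for lists with at least 2 such genes. Each point is a gene, some of them named, red bars are list medians and the dotted line is the median of all listed genes; liver, limb mesenchyme, T cell and BMP response genes lie above 0, and epidermal and skeletal muscle genes below.

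The labelled tissue was checked against its markers. Of 11 skeletal muscle genes 7 had values, among the highest Acta1, at 1580 to 1629 in the Noggin-deficient libraries and 2335 to 2357 in wild type muscle, and all 7 were lower in Noggin-deficient muscle. Of 11 BMP response genes 8 had values and all were higher, with a median of 0.51. Msx1 and Msx2 on this list are also on the list of distal and posterior limb mesenchyme.

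The annotated exons of Gata3 overlap those of 9230102O04Rik and of the antisense gene Gm13256, and those of Hand2 overlap the antisense transcript Hand2os1, in GENCODE M21. 9230102O04Rik lies on the same strand as Gata3, so strand cannot separate reads from their shared bases. Gm13256 and Hand2os1 lie on the opposite strand. The library kit keeps strand, but the sources used here do not say whether counting used it. Reads of these antisense pairs may therefore also not be separated in the values of Gata3 and Hand2.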

How the data were processed

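RNA sequencing values of E15.5 mouse forelimb muscle were used, from 3 samples labelled Noggin-deficient and 2 labelled wild type control. The authors deposited 1 normalized expression signal per gene and sample, with no unit named in the headers or labels, rounded to 2 decimals in all but 1 of 23715 values. They are not counts. Rounding hides the steps of single reads, so depth is unknown and no counting interval is given. Per the labels' protocols, libraries were made with a stranded mRNA kit. Per the submitters' processing notes, STAR 2.4.2a, DESeq2 and mm9 were used, with no stated role. For the read counter, annotation and normalization, the sources used here state nothing. The groups do not overlap for 98.2% of the listed genes, so the tables look preselected for a difference between these groups, and adjusted p-values over them are not independent evidence. Listed values summed to 92210 to 93695 in the Noggin-deficient and 100792 to 102783 in the wild type libraries. No pair of replicates shared more than 3.92% of identical values.

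The main fit used limma 3.58.1 in R 4.3.3 (limma-trend) on log2(value + 0.25), with genotype as its single term and wild type subtracted from Noggin-deficient, for the 3913 genes with at least 0.5 in at least 2 libraries, with Benjamini-Hochberg adjustment. It was tested on simulated data. Transcript lengths are the longest GENCODE M21 transcript of a symbol, matched for 94.1% of genes.

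The members and lists were chosen with earlier results of these data known, and no p-value is used to support the members, whose calls are counted beside those of all genes tested. The text names the 8 members and Nog, up to 3 genes of each list with the largest difference, and the 5 genes nearest in profile to Th and to Hand2. Some list genes that enter the counts are not reported here by name. Alternatives were the pseudocount, the filter, 2 scalings, removal of a length trend, a replicate block, a test against a 1.5-fold change and leaving out each sample.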

Additional observations from a re-analysis of the deposited data

How the results depend on the processing

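The 8 genes kept the sign of their difference in all 100 values over 13 alternatives, and 68 of the 100 values moved by less than 1 SD between replicates. Most of this was fixed in advance. The groups overlapped for none of the 8 genes, so only the scalings and the removal of the length trend could have changed a sign. A change of the filter leaves the difference of a tested gene as it was. The replicate block gave the 8 genes the same differences as leaving out Noggin-deficient replicate 3, such as 2.79 for Th. The pseudocount moved Th and Hand1 most, as given in the report. The enzyme median exceeded the factor median by 1.34 with a pseudocount of 0.1, by 0.67 with a pseudocount of 1, and by 0.99 to 1.27 when a sample was left out. With a minimum of 1, Hand1 and Ret were not tested and no factor median was taken. Of all genes, 1256, 1488 and 1386 were called lower under median-of-ratios scaling, upper-quartile scaling and removal of the length trend, against 2352. Of the calls 38.7% were higher, against 54.5%, 50.3% and 48.7% under these settings. Against a 1.5-fold change 569 genes were called, 165 higher and 404 lower, 5 of the 8 genes among them, with Ddc, Gata3 and Ret not called (limma treat). Of the other pathway genes, 1 in place of 2 was called lower under median-of-ratios and under upper-quartile scaling, and 1 to 2 when a sample was left out.

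The replicate numbers do not pair the samples: deviations from the group means correlated across genes at -0.126 for replicate 1 and -0.062 for replicate 2. With the replicate block 3772 genes were called, against 3836. Depth is unknown, so the counting error of values of a few hundredths, such as Th and Hand1 in wild type, cannot be given.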
